A study of Rattus norvegicus with 10 samples.

Results

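The glucocorticoid receptor target genes are described here from the rows of the expression table that carry 1 of 10 symbols: Nr3c1, Fkbp5, Tsc22d3, Zbtb16, Klf9, Sgk1, Ddit4, Cdkn1a, Mt1a and Cebpd. Rows were matched by symbol alone. The table held 9 of these genes in 11 rows, out of 17221 transcripts of 16497 genes, and Cebpd is not analysed here. Sgk1 held 3 of the 11 rows and each other gene held 1.

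The animals were female Wistar rats and the tissue was subcutaneous muscle. Every group had collagen-induced arthritis, so none was free of the disease. The model is raised by immunising rats with bovine type II collagen in adjuvant. The 10 libraries formed 5 groups of 2: RA_0 before any therapy, AP_1h and AP_34d at 1 hour and 34 days of acupuncture, and PLA_1h and PLA_34d at the same times of placebo. Acupuncture was a thumb-tack needle put in and twirled at points on the lower back and lower leg, close to the tissue later sampled. Placebo was saline given into the peritoneum, away from the sampled tissue, so needling at the site and the kind of treatment cannot be told apart. All rats were shaved, and the tissue was taken under deep general anaesthesia after blood had been drawn. The age of the rats and the hour of sampling are not given in the sources used here.

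Glucocorticoids, corticosterone in the rat, are released by the adrenal cortex in a daily rhythm and under stress. The hormone enters the cell and binds a receptor that Hsp90 and its co-chaperones hold in the cytoplasm, and the receptor then moves to the nucleus and binds DNA, often at inverted repeats. Among the genes it switches on are its own brake (Fkbp5), regulators that damp inflammation (Tsc22d3), and in muscle the ubiquitin ligases of protein breakdown.

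Levels are given as CPM, read counts relative to library size with TMM scaling, per library and in the order replicate 1, replicate 2. The libraries held between 5371687 and 8899521 counted reads, and a count of 0 allowed up to between 0.297 and 0.716 CPM (3 reads, counting error only). Changes are differences of log2(CPM + 1) with their standard error (SE), tested with limma over all 10 libraries and adjusted over 10259 transcripts by the Benjamini-Hochberg procedure. A call is an adjusted p under 0.05. The rule of the study is the looser second reading: an unadjusted p under 0.05, a change of 2-fold or more, and 1 CPM or more on average in the libraries compared. The skeletal muscle markers (6 of 7 in the table) summed to between 92461 and 279070 CPM, and keratinocyte markers (3 of 4) to at most 6.11 CPM. PLA_34d replicate 1 stood apart, with 256 CPM over 8 leukocyte markers where the other libraries had between 27.3 and 124. In that library the T cell marker Cd3e was at 36.3 CPM, and Ptprc was listed at 0 in every library. All samples were stored frozen and extracted as 1 batch, per the labels, and no source used here states that the 2 libraries of a group came from separate rats, so p-values measure the spread between these samples, which may be partly technical.

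The receptor gene was measured at between 95.7 and 263 CPM, and no group stood wholly above or below RA_0. Nr3c1 (NM_012576, rn4 chromosome 18, 32371496 to 32459145, minus strand) was at 127 and 165 CPM in RA_0, 133 and 263 in AP_1h, 182 and 109 in PLA_1h, 95.7 and 216 in AP_34d, and 197 and 145 in PLA_34d. Each of the 4 later groups overlapped RA_0, and the widest spread within a group was 2.25-fold, in AP_34d. The log2 change in AP_1h against RA_0 was 0.36 ± 0.48 (SE, n = 2 and 2, limma adjusted p 0.873, 95% interval -0.70 to 1.42), an interval that leaves room for a change of either sign. That change was -0.13 without AP_1h replicate 2.

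Fkbp5 encodes the co-chaperone that lowers the receptor's affinity for hormone. Of the 9 genes it had the smallest adjusted p against RA_0 in AP_1h. It (NM_001012174, rn4 chromosome 20, 6637478 to 6722753, minus strand) was at 21.5 and 21.7 CPM in RA_0, against 239 and 149 in AP_1h, 108 and 154 in PLA_1h, 229 and 68.3 in AP_34d, and 36.9 and 40.9 in PLA_34d. All 8 libraries taken after the start of either treatment were above both RA_0 libraries, and the 2 placebo libraries at 34 days were the lowest of the 8. The log2 change from RA_0 was 3.07 ± 0.50 in AP_1h (limma adjusted p 0.0934), 2.53 ± 0.50 in PLA_1h (limma adjusted p 0.950), 2.48 ± 0.50 in AP_34d (limma adjusted p 0.419) and 0.82 ± 0.50 in PLA_34d (limma adjusted p 0.914). None passed the adjusted threshold, and all but the last met the rule of the study. The AP_1h change stayed 3.07 with AP_34d replicate 1 or AP_34d replicate 2 left out. It passed the threshold there only through the shared estimate of the spread, since AP_34d is not in this comparison. Over all 23 alternatives its adjusted p ran from 3.14e-06 (DESeq2) to 0.564. The AP_34d change was 1.62 without AP_34d replicate 1 and 3.35 without AP_34d replicate 2.

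**Figure D1:**
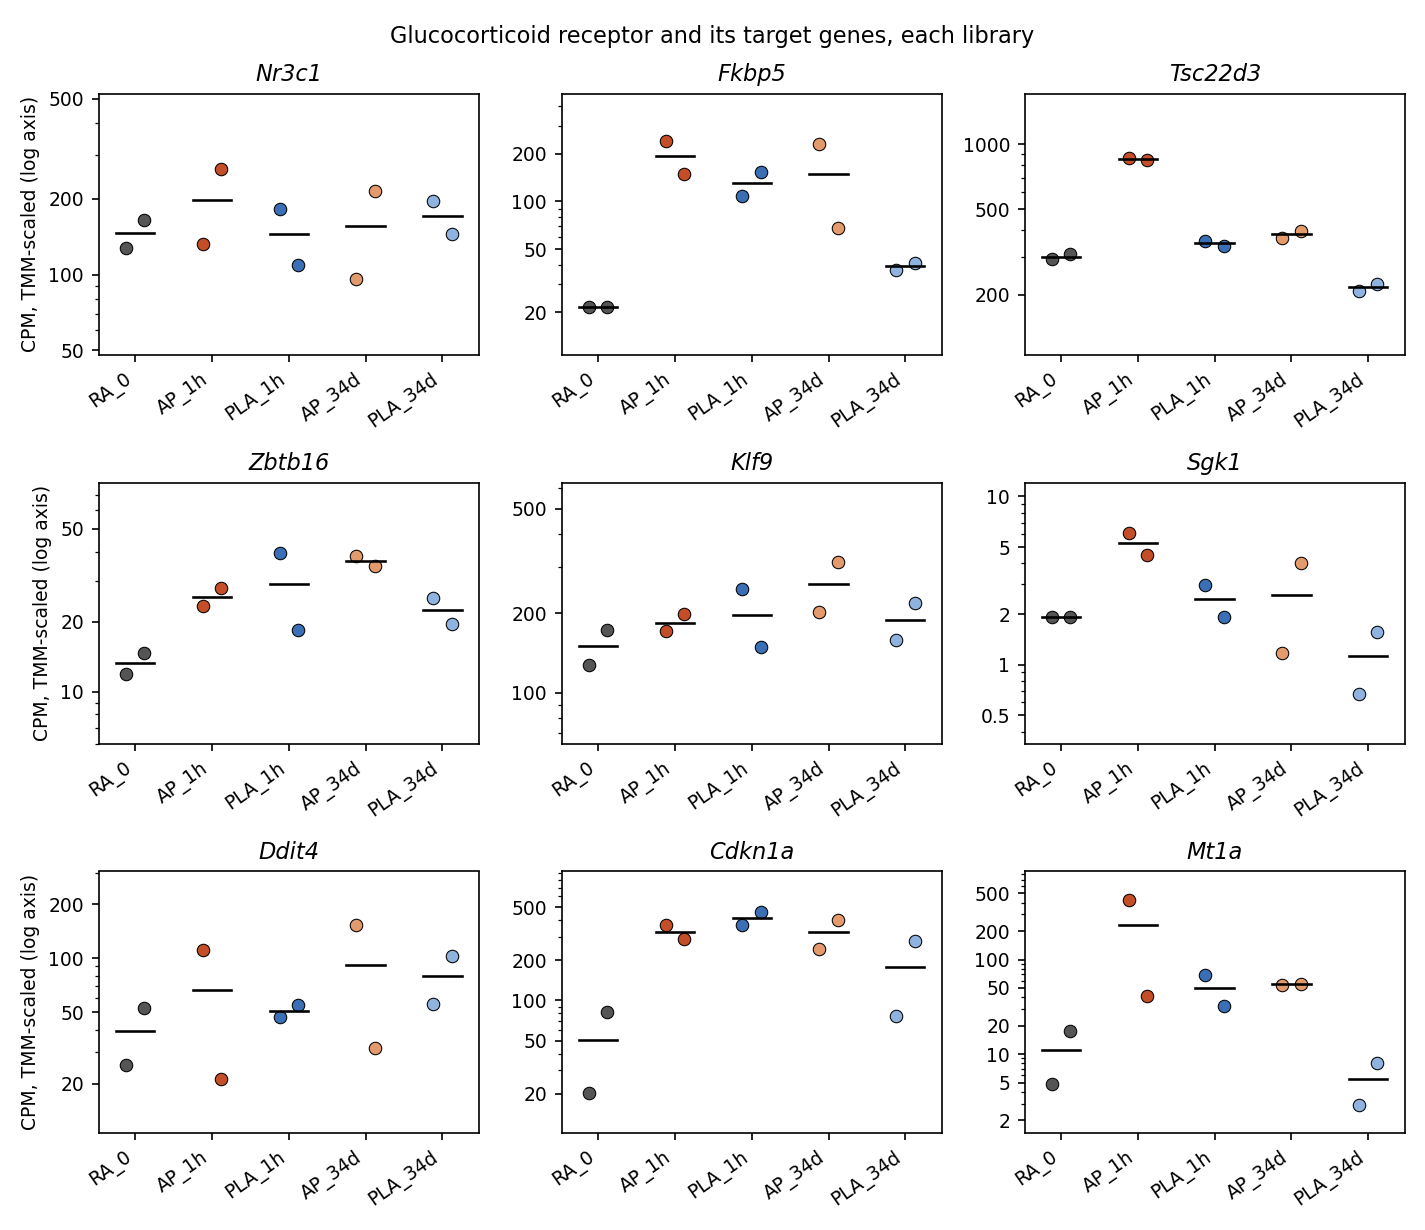
Level of the receptor gene Nr3c1 and 8 target genes in each of the 10 libraries, as TMM-scaled CPM on a log axis that differs between panels. Points are single libraries (replicate 1 left, replicate 2 right) and bars the mean of 2. Fkbp5 sits at 21.5 and 21.7 CPM in RA_0 and above that in all later libraries, while Tsc22d3 reaches 864 and 848 CPM in AP_1h and is at or under 397 CPM in the others.

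Tsc22d3, also known as GILZ, is a leucine zipper protein that binds and restrains inflammatory transcription factors. It had the tightest replicates of the set, within 1.08-fold in every group. The gene (NM_031345, rn4 chromosome X, 128336408 to 128340027, minus strand) was at 292 and 307 CPM in RA_0, 864 and 848 in AP_1h, 357 and 338 in PLA_1h, 368 and 397 in AP_34d, and 209 and 223 in PLA_34d. AP_1h was above every other library, and PLA_34d was below every other library. The 5 groups did not overlap each other in pairs, with PLA_1h and AP_34d next to each other in the order. Against RA_0 the log2 change was 1.51 ± 0.30 in AP_1h (limma adjusted p 0.151), 0.21 ± 0.30 in PLA_1h (limma adjusted p 1.00), 0.35 ± 0.30 in AP_34d (limma adjusted p 0.967) and -0.47 ± 0.30 in PLA_34d (limma adjusted p 0.914).

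Zbtb16, or PLZF, is a zinc finger repressor that glucocorticoids induce in many tissues. Zbtb16 (NM_001013181, rn4 chromosome 8, 51931530 to 52094813, minus strand) was at 11.9 and 14.7 CPM in RA_0, 23.2 and 28.0 in AP_1h, 39.6 and 18.4 in PLA_1h, 38.3 and 34.5 in AP_34d, and 25.2 and 19.6 in PLA_34d. As with Fkbp5, each treated library was above both RA_0 libraries. The log2 change from RA_0 was 1.39 ± 0.37 in AP_34d (limma adjusted p 0.801), which met the rule of the study, 0.90 ± 0.37 in AP_1h (limma adjusted p 0.531) and 0.98 ± 0.37 in PLA_1h (limma adjusted p 1.00), which were under 2-fold on this scale. The PLA_1h value was 0.45 without PLA_1h replicate 1 and 1.51 without PLA_1h replicate 2.

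Klf9 is a Kruppel-like transcription factor that follows glucocorticoid and thyroid hormone levels. Klf9 (NM_057211, rn4 chromosome 1, 226420949 to 226446376, plus strand) was at 127 and 172 CPM in RA_0, 171 and 198 in AP_1h, 247 and 149 in PLA_1h, 202 and 314 in AP_34d, and 158 and 219 in PLA_34d. Only AP_34d lay wholly above RA_0, with a log2 change of 0.76 ± 0.37 (limma adjusted p 0.967), which was 0.45 without AP_34d replicate 2 and 1.08 without AP_34d replicate 1.

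Sgk1 is a kinase that regulates ion channels and cell survival. Its 3 transcripts on rn4 chromosome 1, minus strand, overlap each other, and reads that fit more than 1 of them were dropped in counting, so its level is understated. NM_019232 (23501258 to 23506697) was at 1.91 and 1.93 CPM in RA_0, 6.05 and 4.48 in AP_1h, 2.97 and 1.93 in PLA_1h, 1.17 and 4.03 in AP_34d, and 0.673 and 1.56 in PLA_34d. The other 2 Sgk1 transcripts were at or under 0.594 CPM and fell short of the filter of 1 CPM in both libraries of a group. The tested transcript rests on between 17 and 88 reads a group. Its log2 change in AP_1h against RA_0 was 1.09 ± 0.46 (limma adjusted p 0.533), which met the rule of the study.

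Ddit4 (REDD1) inhibits mTORC1 and answers to hypoxia and energy stress as well as to the hormone. Ddit4 (NM_080906, rn4 chromosome 20, 27252273 to 27254371, minus strand) was at 25.5 and 52.6 CPM in RA_0, 112 and 21.1 in AP_1h, 46.9 and 55.1 in PLA_1h, 153 and 31.4 in AP_34d, and 55.6 and 103 in PLA_34d. The 2 libraries of AP_1h differed 5.30-fold and those of AP_34d 4.86-fold, and replicate 1 was the higher in both. In none of the 10 comparisons did Ddit4 meet the rule of the study.

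Cdkn1a encodes the cyclin-dependent kinase inhibitor p21, a target of p53 as well as of the receptor. Cdkn1a (NM_080782, rn4 chromosome 20, 7376325 to 7386778, plus strand) was at 20.3 and 81.4 CPM in RA_0, 368 and 286 in AP_1h, 369 and 462 in PLA_1h, 243 and 403 in AP_34d, and 77.1 and 277 in PLA_34d. Both arms at 1 hour, and acupuncture at 34 days, stood above RA_0 without overlap, while PLA_34d replicate 1 lay within RA_0. The log2 change from RA_0 was 2.96 ± 0.68 in AP_1h (limma adjusted p 0.233), 3.30 ± 0.68 in PLA_1h (limma adjusted p 1.00), 2.91 ± 0.68 in AP_34d (limma adjusted p 0.722) and 1.81 ± 0.68 in PLA_34d (limma adjusted p 0.914). All 4 met the rule of the study. Without RA_0 replicate 1 or without PLA_34d replicate 2 the last no longer met it. Without RA_0 replicate 1 the AP_34d change was 1.93 and without RA_0 replicate 2 it was 3.88.

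Mt1a is a metallothionein, a small metal-binding protein induced by zinc and by the hormone. Mt1a (NM_138826, rn4 chromosome 19, 11261631 to 11262647, minus strand) was at 4.77 and 17.5 CPM in RA_0, 426 and 41.1 in AP_1h, 68.5 and 32.3 in PLA_1h, 53.5 and 55.4 in AP_34d, and 2.92 and 8.10 in PLA_34d. The 2 AP_1h libraries differed 10.4-fold, the widest gap of any member, and both were above RA_0. Against RA_0 the log2 change was 3.70 ± 0.94 in AP_1h (limma adjusted p 0.241), 2.22 ± 0.94 in PLA_1h (limma adjusted p 1.00) and 2.42 ± 0.94 in AP_34d (limma adjusted p 0.967), and these 3 met the rule of the study. PLA_34d was at -0.79 ± 0.94 (limma adjusted p 0.914), and at 0.049 without RA_0 replicate 2. The AP_1h change was 2.03 without AP_1h replicate 1 and 5.37 without AP_1h replicate 2. Without RA_0 replicate 1 the PLA_1h and AP_34d changes were 1.38 and 1.58, and without RA_0 replicate 2 they were 3.06 and 3.26.

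The gene whose pattern was most like that of Mt1a was its neighbour Mt2A, another metallothionein, with r = 0.98 on log2(CPM + 1) over the 10 libraries. Mt2A was at 6.92 and 22.3 CPM in RA_0, 618 and 88.9 in AP_1h, 80.2 and 61.2 in PLA_1h, 63.7 and 93.1 in AP_34d, and 1.79 and 12.2 in PLA_34d. The 250 bases before each start are shown because this was the highest r between any member and its likest gene. They are from RefSeq (GRCr8), Mt1a at chr19:10832976-10833225 and Mt2A at chr19:10838709-10838958, both on the minus strand and written 5′ to 3′, with matches to the metal response element in capitals.
Mt1a: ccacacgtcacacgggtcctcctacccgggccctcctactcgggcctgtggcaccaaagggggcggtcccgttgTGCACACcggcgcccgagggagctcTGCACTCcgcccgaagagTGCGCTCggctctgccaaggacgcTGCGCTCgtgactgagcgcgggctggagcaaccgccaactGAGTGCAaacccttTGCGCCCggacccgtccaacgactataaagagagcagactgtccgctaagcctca
Mt2A: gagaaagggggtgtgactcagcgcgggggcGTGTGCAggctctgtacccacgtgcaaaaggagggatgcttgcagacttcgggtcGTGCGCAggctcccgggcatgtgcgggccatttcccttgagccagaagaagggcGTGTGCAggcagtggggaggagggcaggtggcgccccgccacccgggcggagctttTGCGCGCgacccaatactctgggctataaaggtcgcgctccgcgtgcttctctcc
Mt1a held 6 matches and Mt2A 4. The letters searched were TGCACNC and TGCGCNC on both strands, and 24.2% of all 33469 RefSeq windows held at least 1 match. Each window runs from 250 bases before to 50 after the start and so is longer than the stretches shown. For 8 members 13 windows were found, with none for Zbtb16. Of these 13, 4 held the metal response element, those of Nr3c1, Tsc22d3, Ddit4 and Mt1a with 1 window each. The glucocorticoid response element, searched as AGAACA followed after any 3 bases by TGTTCT, was in 0 of the 13 and in 0.0149% of all windows. Its arm AGAACA, searched on both strands and overlapping the element, was in 0 of the 13 and in 20.7% of all windows. These letters are not in these windows, which says nothing of sites elsewhere.

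Against RA_0, which all 4 of the following comparisons share, the count of members higher by the rule of the study was 5 in AP_1h, 3 in PLA_1h, 4 in AP_34d and 1 in PLA_34d. limma called 0 of the 9 members in AP_1h, where it called 0.0292% of all transcripts. Unadjusted p was under 0.05 for 6 members. On recovered reads limma-voom and edgeR found 0 here and in the other comparisons, and 4 were called by DESeq2 (Fkbp5, Tsc22d3, Cdkn1a and Mt1a), which called 1.62% of all transcripts. By the rule of the study 5 of the 9 were higher (Fkbp5, Tsc22d3, Sgk1, Cdkn1a and Mt1a), against 2.53% of all transcripts, and 0 were lower, against 3.59%. Both AP_1h libraries were above both RA_0 libraries for 6 members, against 20.6% of all transcripts, and below them for 0, against 21%. The median log2 change over the 9 was 1.09, and over all transcripts 0.00. With any 1 of the 4 compared libraries left out, 4 members met the rule.

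In PLA_1h limma called 0 of the 9 and 0% of all transcripts, with 4 members at an unadjusted p under 0.05 and 2 called by DESeq2 (Fkbp5 and Cdkn1a), against 0.0975% of all. By the rule of the study 3 were higher (Fkbp5, Cdkn1a and Mt1a), against 0.994% of all, and 0 were lower, against 0.673%. Wholly above RA_0 were 5, against 15.8% of all, and wholly below 0, against 13.6%. The median log2 change was 0.46, with all transcripts at -0.01.

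In AP_34d limma called 0 of the 9 and 0% of all, with 4 at an unadjusted p under 0.05 and 2 called by DESeq2 (Fkbp5 and Cdkn1a), against 0.322% of all. Higher by the rule of the study were 4 members (Fkbp5, Zbtb16, Cdkn1a and Mt1a), against 1.49% of all, and 0 were lower, against 1.33%. Wholly above RA_0 were 6, against 16.4% of all, and wholly below 0, against 15.9%. The median log2 change was 0.90, with all transcripts at -0.01.

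In PLA_34d limma called 0 of the 9 and 0% of all, DESeq2 called 0 and 0.37% of all, and 1 member had an unadjusted p under 0.05. That member, Cdkn1a, was the 1 of 9 higher by the rule of the study, against 1.98% of all, and 0 were lower, against 0.439%. Wholly above RA_0 were 3 members, against 16.8% of all, and wholly below were 2 (Sgk1 and Tsc22d3), against 14.2% of all. The median log2 change was 0.33, with all transcripts at -0.01.

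**Figure D2:**
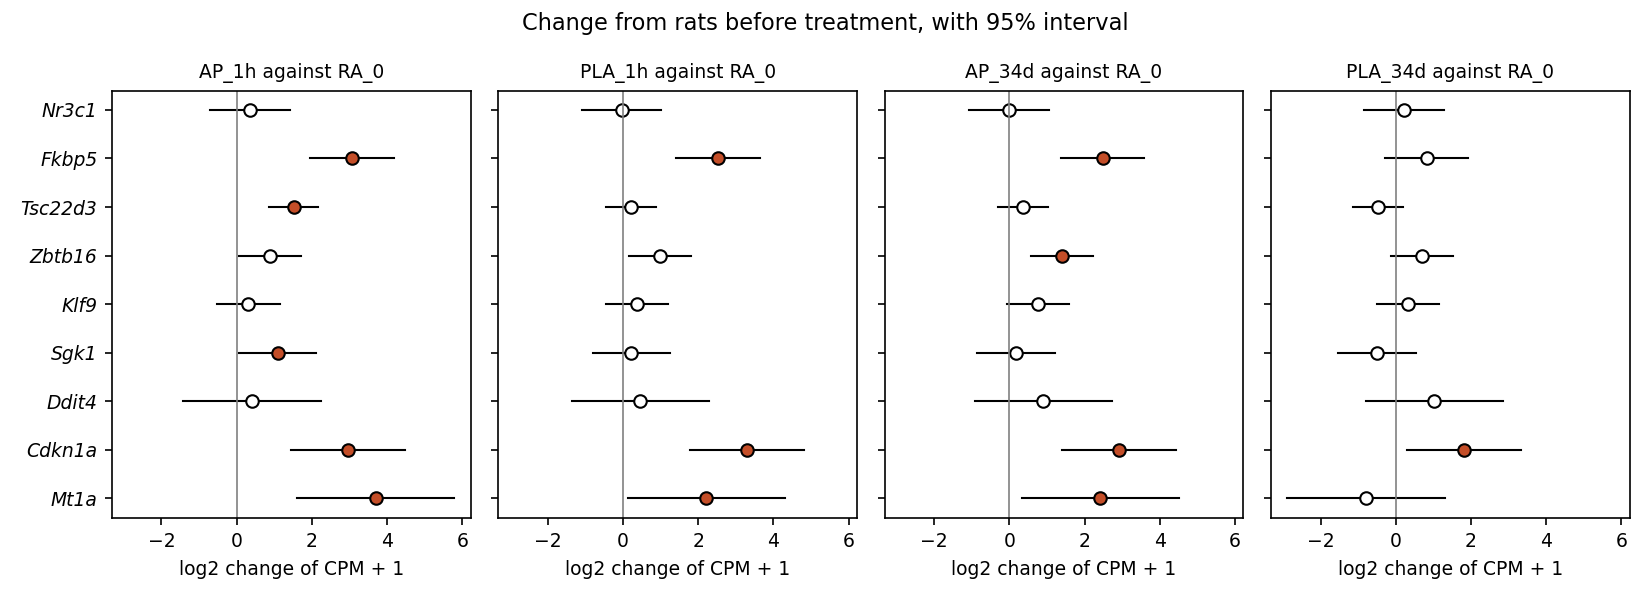
Log2 change of CPM + 1 from RA_0 for the 9 genes in each of the 4 later groups, as the limma estimate (point) with its 95% interval (line). Filled points met the rule of the study and open points did not. Filled points number 5 in AP_1h, 3 in PLA_1h, 4 in AP_34d and 1 in PLA_34d.

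The comparison of the arms at the same time asked whether acupuncture and placebo differed. At 1 hour limma called 0 of the 9 and 0% of all transcripts, with 1 member at an unadjusted p under 0.05 and 1 called by DESeq2, against 0.38% of all. Both were Tsc22d3, which had a log2 difference of 1.30 ± 0.30 for AP_1h over PLA_1h (limma adjusted p 0.532) and was the 1 member higher by the rule of the study, against 0.975% of all, with 0 lower, against 1.65%. Both AP_1h libraries were above both PLA_1h libraries for 2 members (Sgk1 and Tsc22d3), against 13.9% of all, and below for 1 (Cdkn1a), against 16.7%. Without AP_1h replicate 2 the rule was met by 2. Fkbp5 differed by 0.55 ± 0.50 (95% interval -0.56 to 1.65) and Cdkn1a by -0.35 ± 0.68 (95% interval -1.86 to 1.17), intervals wide enough for a 2-fold difference. Sgk1 differed by 0.87 ± 0.46 (95% interval -0.16 to 1.89). Mt1a differed by 1.48 ± 0.94 (95% interval -0.61 to 3.57), and by -0.19 without AP_1h replicate 1. Without AP_1h replicate 1 the Fkbp5 and Cdkn1a differences were 0.21 and -0.53, and without AP_1h replicate 2 they were 0.89 and -0.17.

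At 34 days limma called 0 of the 9 and 0% of all, with 3 members at an unadjusted p under 0.05 and 2 called by DESeq2 (Fkbp5 and Mt1a), against 0.848% of all. The same 2 were higher in AP_34d by the rule of the study, against 1.38% of all, and 0 were lower, against 2.18%. Fkbp5 differed by 1.66 ± 0.50 and Mt1a by 3.22 ± 0.94 (limma adjusted p 0.846 for both). Tsc22d3, with 0.82 ± 0.30 (limma adjusted p 0.846), was under 2-fold. Both AP_34d libraries were above both PLA_34d libraries for 4 members (Fkbp5, Tsc22d3, Zbtb16 and Mt1a), against 16% of all, and below them for 0, against 15%. Without PLA_34d replicate 1 the rule of the study was again met by 2, and without PLA_34d replicate 2 by 3. Without AP_34d replicate 1 the Fkbp5 difference was 0.80 and no longer met the rule, and without AP_34d replicate 2 it was 2.53.

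Averaged over both times, acupuncture stood above placebo by the rule of the study for 3 members, against 0.877% of all transcripts, and below it for 0, against 0.868%. These were Fkbp5 (1.10 ± 0.35, limma adjusted p 0.727), Tsc22d3 (1.06 ± 0.21, limma adjusted p 0.351) and Mt1a (2.35 ± 0.67, limma adjusted p 0.605). The Fkbp5 difference was under 2-fold without AP_34d replicate 1 (0.67), AP_1h replicate 1 (0.93) or PLA_1h replicate 1 (0.98), and was 1.54 without AP_34d replicate 2. The Mt1a difference was 1.51 without AP_1h replicate 1 and 3.18 without AP_1h replicate 2. limma called 0 of the 9 and 0% of all, with 4 at an unadjusted p under 0.05, and DESeq2 called 2 (Tsc22d3 and Mt1a), against 0.624% of all. Tsc22d3 alone had all 4 acupuncture libraries above all 4 placebo libraries, as 1.27% of all transcripts had, and 0 had the reverse, against 1.56%. The interaction of arm and time met the rule of the study for 0 members, against 1.78% of all in the higher and 2.06% in the lower direction, and for 1 member without AP_1h replicate 1, PLA_1h replicate 2, AP_34d replicate 2 or PLA_34d replicate 2. For Fkbp5 it was 1.12 ± 0.70 and for Tsc22d3 -0.48 ± 0.42 (limma adjusted p 1.00 for both), so a difference between the times was not shown. No member had an unadjusted p under 0.05 for it, and DESeq2, edgeR and limma-voom called 0 members, with 0.214% of all called by DESeq2. Without AP_34d replicate 1 the interaction for Fkbp5 was 0.25 and without AP_34d replicate 2 it was 1.98.

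**Figure D3:**
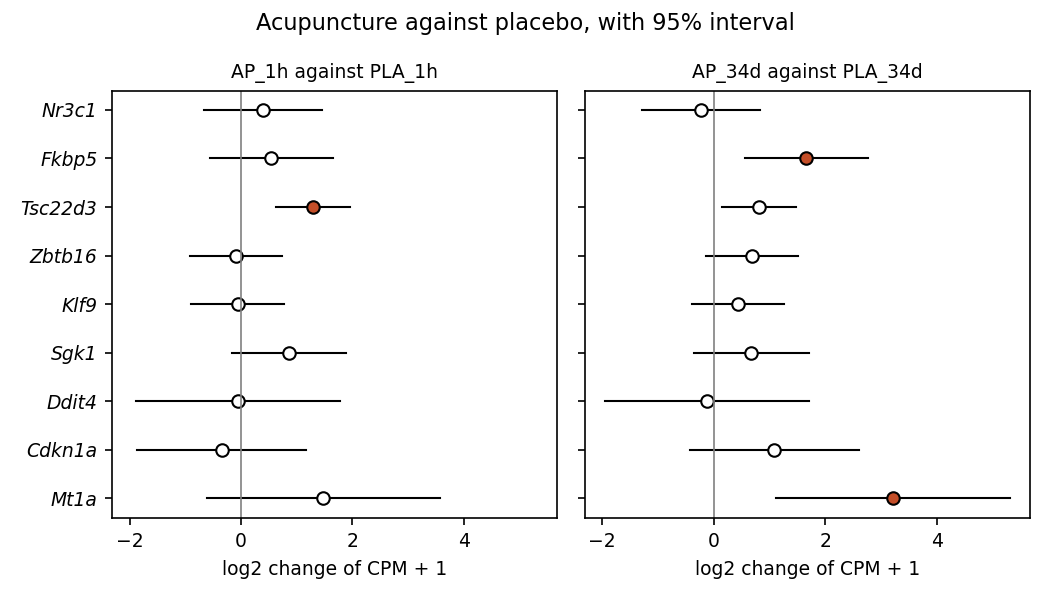
Log2 difference of CPM + 1 between acupuncture and placebo at 1 hour (left) and 34 days (right) for the 9 genes, as the limma estimate with its 95% interval. Filled points met the rule of the study: Tsc22d3 at 1 hour, and Fkbp5 and Mt1a at 34 days.

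Between the times within an arm, limma called 0 of the 9 and 0% of all transcripts in both. In acupuncture 1 member had an unadjusted p under 0.05 and 1 was called by DESeq2, against 0.409% of all. It was Tsc22d3, lower at 34 days than at 1 hour by the rule of the study (-1.16 ± 0.30, limma adjusted p 0.627), against 1.38% of all, and 0 were higher, against 1.96%. AP_34d lay wholly above AP_1h for 2 members, against 17.1% of all, and wholly below for 2, against 16%. The rule was met by 2 without AP_1h replicate 2 or either AP_34d library. In placebo 3 members had an unadjusted p under 0.05 and DESeq2 called 1 (Mt1a), against 0.341% of all. Lower at 34 days by the rule of the study were 2 members, against 0.76% of all, Fkbp5 (-1.71 ± 0.50) and Mt1a (-3.01 ± 0.94), with a limma adjusted p of 0.999 for both. Higher were 0, against 1.34%. PLA_34d lay wholly below PLA_1h for 5 members (Fkbp5, Sgk1, Tsc22d3, Cdkn1a and Mt1a), against 14.4% of all, and wholly above for 1 (Ddit4), against 12.7%. The change of Tsc22d3 was -0.68 ± 0.30 (limma adjusted p 0.999). Without PLA_1h replicate 1 or PLA_34d replicate 1 only 1 member met the rule.

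The machinery around the receptor was measured by 2 lists. Of 12 genes for the chaperones and the supply of hormone, 11 were tested and 0 were called by limma in any comparison. In the 6 comparisons with RA_0 and between arms 3 met the rule of the study, Serpina6, Hsp90aa1 and Abcb1b. Of all transcripts between 0.439% and 3.59% met it per comparison and direction. The share meeting it in any of the 6 was not computed, for these 2 lists or for the repressed genes below. Serpina6, corticosteroid-binding globulin, was at 0 and 0.149 CPM in RA_0, 9.30 and 6.16 in AP_1h, 0.297 and 1.93 in PLA_1h, 0.391 and 1.79 in AP_34d, and 0 and 0.142 in PLA_34d. Both AP_1h values were above all others, and the RA_0 values were under the floor of 3 reads, so no fold is given (limma adjusted p 0.0934). Hsp90aa1, the inducible Hsp90 that holds the receptor, was at 38.6 and 46.3 CPM in RA_0, 73.8 and 113 in AP_1h, 107 and 57.9 in PLA_1h, 60.4 and 157 in AP_34d, and 70.4 and 43.1 in PLA_34d. It met the rule in both acupuncture groups against RA_0 (limma adjusted p 0.559 in AP_1h and 0.967 in AP_34d). The more abundant Hsp90ab1 was at 1926 and 1566 CPM in RA_0, 1753 and 1385 in AP_1h, and 1739 and 2598 in AP_34d. Of the 12 tested rows of this list 6 were higher in AP_1h and 7 in AP_34d, with median log2 changes of 0.01 and 0.28. Of 10 coregulators 7 were tested, and 1, Ncoa2, met the rule, in PLA_34d (31.6 and 16.8 CPM against 5.01 and 9.65).

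Other genes that glucocorticoids induce were taken as a list of 26, of which 24 were tested and none was called by limma. Against RA_0, 8 were higher by the rule of the study in AP_1h, 3 in PLA_1h, 8 in AP_34d and 0 in PLA_34d, and 0, 1 (Per1), 1 (Dusp1) and 0 were lower. Of all transcripts 2.53%, 0.994%, 1.49% and 1.98% were higher by that rule, and 3.59%, 0.673%, 1.33% and 0.439% lower. Their median log2 change was 0.89 in AP_1h, 0.22 in PLA_1h, 0.91 in AP_34d and -0.09 in PLA_34d. Acupuncture was higher than placebo for 3 of them at 1 hour and for 9 at 34 days, against 0.975% and 1.38% of all transcripts. The number in AP_1h was 5 without AP_1h replicate 1 and 5 without RA_0 replicate 1, and the 3 at 1 hour between arms became 0 without AP_1h replicate 1 and 8 without AP_1h replicate 2.

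For acupuncture against placebo at 34 days the smallest p in this list were those of the muscle ubiquitin ligases Trim63 and Fbxo32 and of Pdk4. Trim63 (MuRF1) was at 306 and 276 CPM in RA_0, 2666 and 680 in AP_1h, 468 and 646 in PLA_1h, 1375 and 2296 in AP_34d, and 196 and 364 in PLA_34d. Fbxo32 (atrogin-1) was at 21.2 and 33.1, 164 and 39.5, 78.9 and 93.0, 148 and 490, and 37.1 and 29.9 CPM in the same order of groups. For AP_34d over PLA_34d the log2 difference was 2.73 ± 0.61 for Trim63 and 2.98 ± 0.66 for Fbxo32 (limma adjusted p 0.756 for both), and the groups did not overlap. Pdk4, which turns muscle from glucose to fat as fuel, was at 1946 and 1094 CPM in AP_34d against 92.4 and 363 in PLA_34d (2.98 ± 0.67, limma adjusted p 0.756). Without PLA_34d replicate 2 the limma adjusted p of Pdk4 was 0.0149. That fit leaves 1 placebo library, the one with the high leukocyte markers, assumed to vary like the other groups, and it called 174 of 10259 transcripts against 0 with all libraries.

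For AP_1h against RA_0 the smallest p in the list were those of Gadd45a, Mt2A and Trim63. Gadd45a, a growth arrest and DNA damage gene, was at 38.9 and 87.9 CPM in RA_0 and 1109 and 526 in AP_1h (3.68 ± 0.70, limma adjusted p 0.121). The log2 change from RA_0 to AP_1h was 4.12 ± 0.91 for Mt2A (limma adjusted p 0.233) and 2.21 ± 0.61 for Trim63 (limma adjusted p 0.286). In AP_1h against PLA_1h Mt2A (1.73 ± 0.91) and Trim63 (1.29 ± 0.61) did not meet the rule of the study, and Gadd45a, Arrdc2 and Lcn2 did. None of the changes from RA_0 passed the adjusted threshold. Without AP_1h replicate 1 the changes of Mt2A and Trim63 from RA_0 were 2.73 and 1.23, and without AP_1h replicate 2 they were 5.51 and 3.19.

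**Figure D4:**
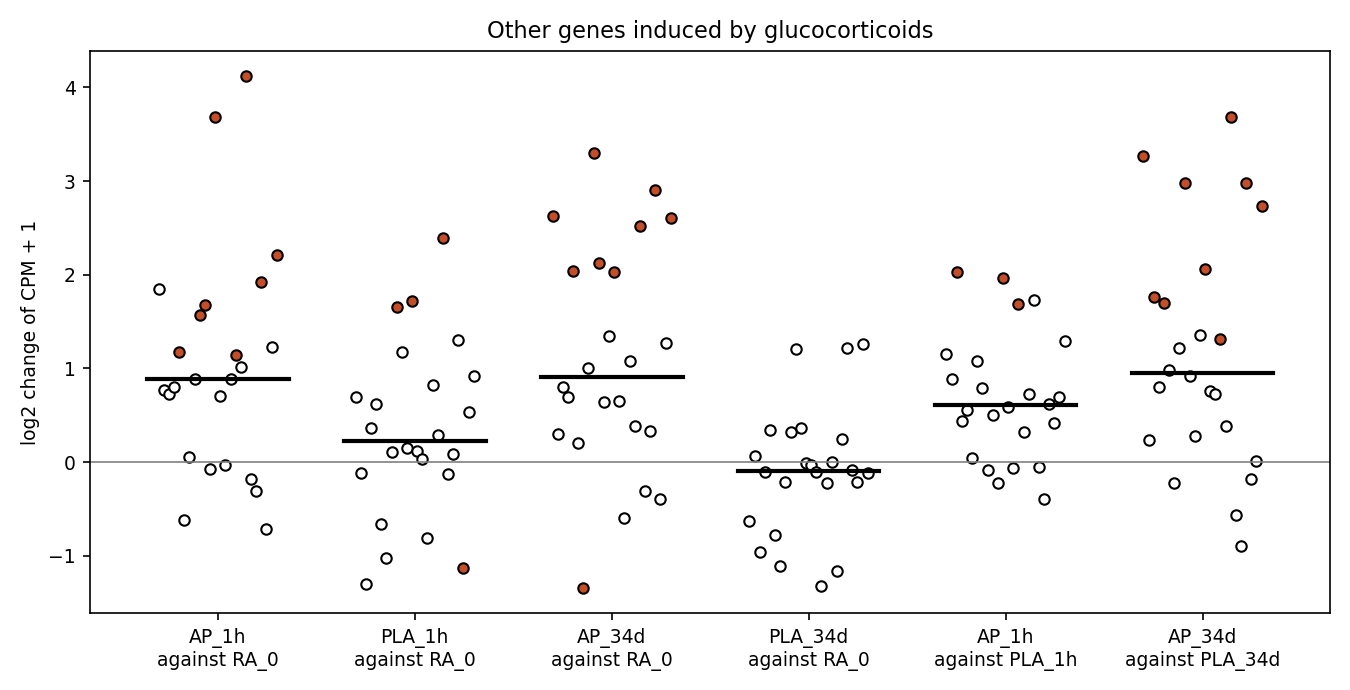
Log2 change of CPM + 1 for the 24 tested genes of the list of other genes that glucocorticoids induce, in 6 comparisons. Each point is a gene, filled where it met the rule of the study, and the bar is the median: 0.89, 0.22, 0.91 and -0.09 against RA_0, then 0.60 at 1 hour and 0.95 at 34 days for acupuncture against placebo.

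A list of 12 genes that the receptor represses had 6 tested members, Ccl2, Cxcl1, Icam1, Il1b, Nos2 and Pomc. Pomc, and Crh among those not tested, act upstream of the adrenal hormone, and the others are tied to inflammation. In the same 6 comparisons 2 of the 6 tested genes met the rule of the study, both against RA_0, and limma called 0. The chemokine Ccl2 was higher in AP_1h (18.3 and 5.32 CPM against 0.716 and 1.63). The chemokine Cxcl1 was lower in both placebo groups (1.69 and 0.175 CPM at 1 hour and 0.449 and 0.142 at 34 days, against 2.62 and 5.94). Its replicate 2 value was under the floor of 3 reads in both placebo groups, so the size of its change is uncertain. In AP_1h against PLA_1h all 6 tested genes were higher on average, with a median log2 difference of 0.89, against 0.01 for all transcripts. Both AP_1h libraries were above both PLA_1h libraries for only 2 of them (Ccl2 and Cxcl1), against 13.9% of all transcripts. Icam1, for example, was at 13.6 and 3.08 CPM in AP_1h against 4.66 and 5.26 in PLA_1h. In AP_34d against PLA_34d 3 were higher, with a median of 0.06. For the mean of both times 2 met the rule, both higher in acupuncture, against 0.877% of all transcripts. These were Ccl2 (1.83 ± 0.73, limma adjusted p 0.807) and Cxcl1 (1.03 ± 0.46, limma adjusted p 0.864). In AP_34d Ccl2 was at 1.56 and 29.4 CPM against 3.14 and 0.995 in PLA_34d. Cxcl1 was at 0.195 and 2.69 CPM in AP_34d, the first under the floor of 3 reads. Neither gene lay wholly above placebo, and their values with a library left out are not given.

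The 9 members did not all vary together. Over the 10 libraries the 36 pairs of members had Pearson's r on log2(CPM + 1) between -0.66 and 0.86, with a median of 0.35, and 11 pairs were above 0.5. The highest was Sgk1 with Tsc22d3. Among transcripts of other symbols with a mean of at least 5 CPM, the most like Fkbp5 was Arntl, the clock gene now named Bmal1, with r = 0.94, followed by Osbpl11 (0.91) and Rnf139 (0.89). For Tsc22d3 these were Ogfrl1 (0.95), Il17rc (0.94) and Pigu (0.90), and Il17rc was also among the 3 most like Sgk1 (0.95). For Nr3c1 it was Ahcyl1 (0.95), for Zbtb16 Lamp2 (0.93), for Klf9 Ufl1 (0.92), for Cdkn1a Net1 (0.91), for Ddit4 Sema3g (0.90) and for Sgk1 Gprc5c (0.97). Each is the highest of about 8144 values over libraries that share groups, and describes these libraries only.

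Markers of the clock and of the fibre type differed between the groups beside the members. The 5 clock genes in phase with Arntl, all in the table, summed to 44.6 and 45.9 CPM in RA_0, 155 and 139 in AP_1h, 66.2 and 66.3 in PLA_1h, 146 and 96.9 in AP_34d, and 51.5 and 60.6 in PLA_34d. The 4 acupuncture libraries were above the 6 others. Nfil3 was the largest part of the sum in AP_1h (102 and 76.5 CPM) and AP_34d (90.8 and 34.7). Arntl and Nfil3 showed this order singly, and Npas2, Clock and Cry1 did not. The 5 of 9 clock genes in phase with Dbp that the table holds summed to between 355 CPM (AP_34d replicate 1) and 1053 CPM (RA_0 replicate 2). Dbp itself was at 426 and 418 CPM in RA_0 and at between 58.6 and 295 CPM in the later libraries. Dbp and Nr1d1 were below both RA_0 libraries in every later library, and Tef, Per2 and Per3 were not. The 7 slow-fibre genes summed to 21071 and 10426 CPM in RA_0, 1024 and 1202 in AP_1h, 4388 and 2005 in PLA_1h, 11859 and 1992 in AP_34d, and 20288 and 1778 in PLA_34d. The part of the clock and of fibre content in the levels of the members was not tested, and in bulk tissue fewer cells of a type and less RNA per cell cannot be told apart.

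**Figure D5:**
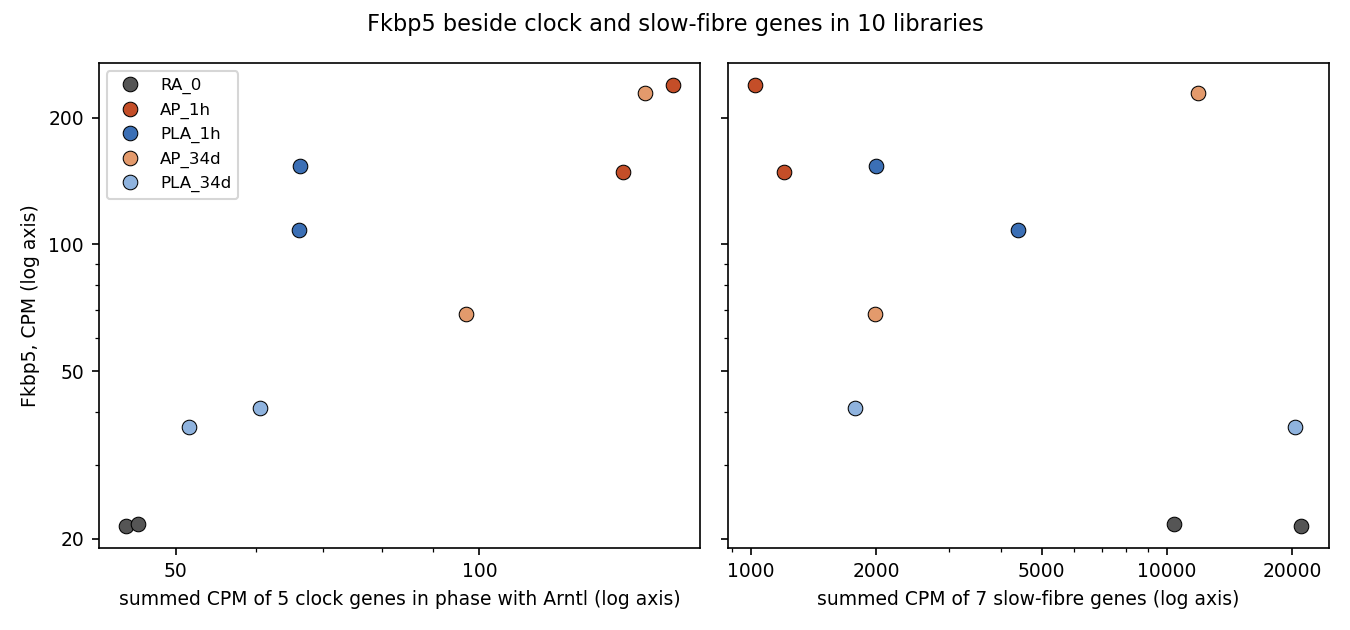
Fkbp5 (CPM, log axis) beside the summed CPM of 5 clock genes in phase with Arntl (left) and of 7 slow-fibre genes (right), both on log axes, with 1 point per library coloured by group. The RA_0 libraries are lowest on Fkbp5 and on the clock sum, at 44.6 and 45.9 CPM, and AP_34d replicate 1 has high Fkbp5 (229 CPM) with 11859 CPM of slow-fibre genes.

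Other cell types showed smaller or unordered differences. Adipocyte markers (6 of 6) summed to between 151 and 384 CPM, endothelial markers (4 of 5) to between 107 and 198, fibroblast and tendon markers (7 of 8) to between 753 and 2612, and red blood cell markers (4 of 4) to between 226 and 628. Leukocyte markers in AP_1h were at 124 and 36.2 CPM, with the higher value in replicate 1, where Mt1a, Trim63 and Ccl2 were also the higher. Others, such as Nr3c1 and Pdk4, were the lower there. In PLA_34d replicate 1, which had the most leukocyte markers, Ccl2 was higher than in replicate 2, and Mt1a and Trim63 were lower. The part of these cell types in the levels was not tested.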

How the data were processed

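RNA-seq of 10 libraries, 2 per group by the labels, was analysed. The deposited table gives 1 signal value per transcript and library, which is CPM scaled by TMM factors (edgeR 3.4.2). The submitters' processing notes and the methods name cutadapt 1.2.1 for trimming. Reads were aligned to rn4 with Bowtie2 2.1.0, and counted per UCSC transcript with HTSeq 0.5.4p3 (intersection-nonempty). Strand use is not given in the sources used here. Values were whole multiples of 1 read within 0.01 reads (100%), so reads were recovered for the count tests. Starts in the table count from 0, and 1 was added. Transcripts at or above 1 CPM in both libraries of any group (10259, 59.6%) were tested on log2(CPM + 1) with limma 3.58.1 in R 4.3.3, 1 mean per group, with eBayes and a mean trend. The 23 alternatives include limma-voom, edgeR 4.0.16 and DESeq2 1.42.0 on recovered reads. Those for the pathway lists were added after seeing the data. With 2 against 2, an exact permutation test cannot go below p 0.333, so none is given. The members, lists and rules were chosen with earlier results of these data known. Named from each list and comparison were up to 3 genes that met the rule of the study, those of smallest p, and for likeness the 3 transcripts of other symbols with the highest r. Per1, Dusp1 and the examples chosen from these, were named after their values were seen. Promoters were matched by transcript (11 of 11 rows), where Mt1a is now Mt1. Scripts were tested on simulated data.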

Additional observations from a re-analysis of the deposited data

Results flagged for a closer look

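Tsc22d3 at 34 days lay on opposite sides of RA_0 in the 2 arms. Both AP_34d libraries (368 and 397 CPM) were above both RA_0 libraries (292 and 307 CPM), and both PLA_34d libraries (209 and 223 CPM) were below them. The log2 difference between the arms was 0.82 ± 0.30 (limma adjusted p 0.846), so the difference did not pass the threshold. This order was looked for in all 9 members at both times and was found only here. The share of all transcripts that show it was not computed. No group was large enough for a check of single libraries against their own group.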

How the results depend on the processing

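With 2 libraries a group, precision is limited by the spread between them, and for Sgk1 and Serpina6 also by few reads. The 46 log2 changes followed here, which leave out those of Ccl2 and Cxcl1, had 1055 values under 23 alternatives. Of these values 1022 kept direction and side of the threshold, 30 passed it and 3 changed sign. These were Nr3c1 in AP_1h against RA_0 (between -0.13 and 0.85 with 1 library left out, lowest without AP_1h replicate 2), Mt1a in AP_1h against PLA_1h (between -0.19 and 3.15, lowest without AP_1h replicate 1) and Mt1a in PLA_34d against RA_0 (between -1.63 and 0.049, highest without RA_0 replicate 2). Scaling by library totals alone moved the median of all transcripts by 0.14 in AP_1h and 0.24 in PLA_34d against RA_0, by -0.20 between arms at 34 days, by 0.19 between times in placebo and by -0.29 for the interaction. DESeq2 called 4 members in AP_1h, 2 in PLA_1h and 2 in AP_34d against RA_0, 1 and 2 between arms at 1 hour and 34 days, 1 between times in each arm and 2 for the mean of both times. The compared groups alone gave 2 calls in AP_1h against RA_0 and left 0 members meeting the rule in PLA_34d against RA_0. In AP_1h against RA_0 that fit called 108 of all 10259 transcripts, against 3 in the main fit. edgeR and DESeq2 each had 2 members meeting the rule in AP_1h against PLA_1h and in AP_34d against AP_1h. With 1 library left out, calls ran from 0 to 1 in AP_1h against RA_0 and were 0 elsewhere. Members meeting the rule then numbered 4 to 5, 2 to 4, 3 to 4 and 0 to 1 in AP_1h, PLA_1h, AP_34d and PLA_34d against RA_0, 1 to 2 and 2 to 3 between arms at 1 hour and 34 days, 1 to 2 and 1 to 3 between times in acupuncture and placebo, 2 to 3 for the mean and 0 to 1 for the interaction. For the other induced genes, PLA_1h against RA_0 (4) gave 1 by library totals and 8 with the compared groups alone. PLA_34d against RA_0 (0) gave 2 with edgeR, 3 with DESeq2, and 1 with a pseudocount of 0.25, without the 20 most abundant transcripts, with the compared groups alone or with the replicate block. AP_1h against PLA_1h (3) gave 5 with edgeR and 6 with DESeq2. With 1 library left out these ran from 5 to 10, 1 to 5, 7 to 11 and 0 to 4 against RA_0, and 0 to 8 and 8 to 12 between arms. The repressed genes (2) gave 1 with limma-voom, no filter, library totals or the replicate block, 4 with DESeq2, 0 with a pseudocount of 4 or a mean of at least 5 CPM, and 1 to 3 with 1 library left out. The chaperones and hormone supply (3) gave 1 at a mean of at least 5 CPM and 2 to 4 with 1 library left out, and the coregulators (1) gave 0 to 3. The cause of these moves was not tested. Same-numbered libraries did not deviate together (r between -0.46 and 0.45 over 10 pairs of groups, over 0.1 in 4), so the numbers were not taken as pairs. With the replicate block 19 of 20 member counts equalled those without it.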
